A study of Mus musculus with 6 samples.

Results

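Eomes, Lmx1a, Calb2, Wls and Tbr1 are genes used to mark unipolar brush cells, the rhombic lip and the excitatory neurons of the cerebellar nuclei. They were taken by name, and they are 5 of the 55487 genes in the count tables and 5 of the 18237 that passed a filter on low counts, so each of them was tested. RNA was sequenced from whole cerebella of male mice at postnatal day 14, 1 animal per library. The 3 knockout (KO) animals were homozygous for the Galnt17 (formerly Wbscr17) knockout allele Galnt17tm1.1(KOMP)Vlcg, and the 3 wild-type (WT) animals were of the B6C3 stock. KO animals came from breeding carriers to B6C3 mice, hybrids of C57BL/6J and C3H/He, because on C57BL/6 no homozygote was born alive, per the labels. The allele was present in every cell, and the part of the gene that it removes was not stated in the sources at hand. Galnt17 encodes a member of the enzyme family that starts mucin-type O-glycosylation.

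The rhombic lip is the germinal zone at the edge of the embryonic hindbrain roof, and it gives rise to the excitatory neurons of the cerebellum. Its products include granule cells, unipolar brush cells and the excitatory neurons of the cerebellar nuclei, while the neighbouring roof plate forms the choroid plexus. Unipolar brush cells are excitatory interneurons of the granular layer. They have a single brush-like dendrite and are concentrated in the posterior vermis, where they amplify mossy fibre input.

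Lmx1a and Calb2 were lower in KO than in WT cerebella, while Eomes, Wls and Tbr1 did not pass the test. Lmx1a was 2.20-fold lower and Calb2 was 1.31-fold lower. Thus 2 of the 5 genes were called lower and 0 higher at an adjusted p below 0.05, where 0.872% of all genes tested were called lower and 0.784% higher. The 3 KO and 3 WT values did not overlap for the same 2 genes, and 12.2% of all genes tested were apart with KO lower and 11.5% with KO higher. The 5 genes were proposed with results of these animals in view, so the count is a description. Both calls were lost when any KO library was left out. In whole tissue, fewer cells of a type, less RNA per cell and a different share of neighbouring tissue cannot be told apart. The labels give KO and WT animals as different strains, so strain background cannot be told apart from the knockout allele.

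The start regions of Lmx1a, Eomes and Tbr1 are shown because these 3 genes encode transcription factors of the lineage and differed in the outcome of the test. Each runs from 250 bases before to 50 bases after the RefSeq transcription start (GRCm38.p6, plus strand) and is printed 5′ to 3′. They lie at chr1:167689308-167689607 for Lmx1a, chr9:118477939-118478238 for Eomes and chr2:61804203-61804502 for Tbr1. In the annotation used for gene positions, Lmx1a starts at 167689237 and Tbr1 at 61802930. The windows of Lmx1a and Tbr1 therefore lie inside the annotated genes, while the Eomes window spans the annotated start (118478212). Capitals mark TAATTA, a core sequence of homeodomain sites that reads the same on both strands.
Lmx1a: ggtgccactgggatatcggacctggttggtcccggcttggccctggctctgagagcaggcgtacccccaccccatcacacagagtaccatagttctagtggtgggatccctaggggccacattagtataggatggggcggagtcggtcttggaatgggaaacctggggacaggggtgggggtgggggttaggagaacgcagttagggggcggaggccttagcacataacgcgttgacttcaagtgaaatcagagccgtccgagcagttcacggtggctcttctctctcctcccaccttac
Eomes: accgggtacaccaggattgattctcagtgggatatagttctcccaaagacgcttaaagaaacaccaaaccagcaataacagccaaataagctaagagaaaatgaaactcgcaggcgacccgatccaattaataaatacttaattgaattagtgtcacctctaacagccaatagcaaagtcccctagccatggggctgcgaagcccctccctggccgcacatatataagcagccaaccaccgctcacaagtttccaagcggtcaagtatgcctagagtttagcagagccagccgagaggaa
Tbr1: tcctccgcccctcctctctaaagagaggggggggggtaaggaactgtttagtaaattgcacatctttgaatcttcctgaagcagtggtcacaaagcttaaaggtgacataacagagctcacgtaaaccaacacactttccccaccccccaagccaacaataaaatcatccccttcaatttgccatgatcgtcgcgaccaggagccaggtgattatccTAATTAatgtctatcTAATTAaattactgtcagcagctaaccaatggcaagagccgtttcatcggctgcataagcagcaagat
TAATTA occurred at positions 218 and 233 of the Tbr1 window, counted from its first base, and was not found in these letters of the Lmx1a, Eomes or Wls windows. Of 32817 start regions of the same length, 5.30% held it. The T-box core AGGTGT, searched on both strands and free of overlap with TAATTA, was found in 0 of the 4 windows and in 13.7% of all start regions. RefSeq start regions were matched for 4 of the 5 genes. The G and C content was 59.3% in the Lmx1a window, 58.0% in the Wls window, 47.3% in the Eomes window and 46.0% in the Tbr1 window.

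Counts in genes totalled 20049223 to 29840046 in KO and 17111611 to 24120704 in WT libraries. Unmapped reads made up 13.8% to 17.2% of reads in KO and 6.52% to 10.03% in WT libraries, and this split cannot be told apart from the genotype. Galnt17 itself was at 2.41, 3.44 and 3.13 CPM (counts adjusted for sequencing depth with TMM scaling) in KO and at 46.3, 42.8 and 46.8 CPM in WT, as the labels have it. Of 8 cerebellar identity genes 7 did not pass, among them the hindbrain homeobox gene En2 at 207 to 210.4 CPM in KO and 199 to 219 CPM in WT, and the Purkinje cell gene Pcp2 rose (213 ± 9.72 against 168 ± 11.6 CPM, adjusted p = 0.0261), a call lost without any 1 of the KO replicates (highest adjusted p = 0.171). Gdf10 of Bergmann glia and Neurod1 of granule cells did not pass (adjusted p = 0.419 and 0.64). WT libraries varied more among themselves: over 10687 genes, the SD of log2 CPM had a median of 0.053 in KO and 0.098 in WT. WT replicate 3 stood apart by genes of the midbrain and upper brainstem: the serotonin transporter gene Slc6a4 was at 0.067, 0.129 and 0.0993 CPM in KO and at 0.0828, 0 and 7.73 CPM in WT replicates 1, 2 and 3.

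Eomes (also called Tbr2) encodes a T-box transcription factor that marks unipolar brush cells and is required for them in mouse. The gene (ENSMUSG00000032446) lies on chromosome 9, 118478212 to 118486132, plus strand, GRCm38. It had 697, 606 and 665 counts in KO and 812, 434 and 609 counts in WT replicates 1, 2 and 3. Scaled for depth, these were 23.4, 26.05 and 33.0 CPM in KO and 33.6, 25.5 and 29.6 CPM in WT. The groups overlapped, with the highest value in WT replicate 1 and the lowest in KO replicate 1. The log2 fold change was -0.12 (SE 0.13, 95% interval -0.41 to 0.18), and Eomes did not pass (adjusted p = 0.681; adjusted p values come from the quasi-likelihood test of edgeR, Benjamini-Hochberg adjusted, unless another tool is named). On the linear scale the interval runs from 0.752 to 1.13 times the WT level. An antisense gene, Gm33460, shares 118 exon bases with Eomes and had 1 or 2 counts in each library.

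Lmx1a encodes a LIM homeodomain transcription factor of the roof plate and rhombic lip that unipolar brush cells retain, and in mouse it is also known from the choroid plexus. The gene (ENSMUSG00000026686) lies on chromosome 1, 167689237 to 167848741, plus strand, GRCm38. It had 37, 25 and 26 counts in KO and 50, 47 and 65 counts in WT replicates 1, 2 and 3. Counting error alone is wide at this depth. The exact 95% Poisson interval was 16.2 to 36.9 counts in KO replicate 2 and 34.5 to 62.5 counts in WT replicate 2. Both intervals are of raw counts, not scaled for depth. KO replicate 2 was the deeper library (23076696 against 17111611 counts in genes). In CPM, Lmx1a was at 1.24, 1.07 and 1.29 in KO and at 2.07, 2.76 and 3.16 in WT. Each KO value lay below each WT value, with the KO values close together and WT replicate 1 nearest to them. Lmx1a fell (1.20 ± 0.113 against 2.66 ± 0.551 CPM, SD, n = 3 each, log2 fold change -1.14, SE 0.23, 95% interval -1.65 to -0.62, adjusted p = 0.0421). The exact permutation test over the 6 libraries gave p = 0.1 (two-sided), the smallest that 3 against 3 allows. The call was lost in limma-voom (adjusted p = 0.0556) and without KO replicate 1, 2 or 3 or WT replicate 2 or 3 (adjusted p = 0.174, 0.203, 0.14, 0.134 and 0.0826), and it held without WT replicate 1 (adjusted p = 0.00644). The log2 fold change stayed between -1.30 and -0.99 whichever library was left out.

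Calb2 encodes calretinin, an EF-hand protein that buffers calcium in a class of unipolar brush cells and, in mouse, in granule cells. The gene (ENSMUSG00000003657) lies on chromosome 8, 110137502 to 110168210, minus strand, GRCm38. It had 10041, 7535 and 7195 counts in KO and 9896, 7307 and 10243 counts in WT replicates 1, 2 and 3. Its levels were 336, 324 and 357 CPM in KO and 410, 429 and 498 CPM in WT. The groups were apart, and WT replicate 3 was the highest. Calb2 fell (339 ± 16.9 against 445 ± 46.4 CPM, SD, n = 3 each, log2 fold change -0.39, SE 0.078, 95% interval -0.57 to -0.22, adjusted p = 0.0366). The exact permutation test over libraries gave p = 0.1. Calb2 lost the call without KO replicate 1, 2 or 3 or WT replicate 2 (adjusted p = 0.166, 0.207, 0.106 and 0.103) and kept it without WT replicate 1 (adjusted p = 0.00516) or WT replicate 3 (adjusted p = 0.0379). The log2 fold change without WT replicate 3 was -0.30.

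Wls encodes the sorting receptor that carries lipid-modified Wnt proteins to the cell surface, and it marks the interior face of the rhombic lip in the mouse embryo. The gene (ENSMUSG00000028173) lies on chromosome 3, 159839672 to 159938664, plus strand, GRCm38. Wls had 1256, 1117 and 912 counts in KO and 1077, 757 and 1093 counts in WT replicates 1, 2 and 3. These were 42.1, 48.0 and 45.3 CPM in KO and 44.6, 44.4 and 53.1 CPM in WT. The groups overlapped, with 5 of the 6 values between 42.1 and 48.0 CPM and WT replicate 3 above them. The log2 fold change was -0.072 (SE 0.082, 95% interval -0.25 to 0.11, adjusted p = 0.682), and it was 0.021 without WT replicate 3. On the linear scale the interval runs from 0.839 to 1.08 times the WT level.

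Tbr1 encodes a T-box transcription factor that marks excitatory neurons of the medial cerebellar nucleus and, in the forebrain, deep-layer cortical neurons. The gene (ENSMUSG00000035033) lies on chromosome 2, 61802930 to 61814114, plus strand, GRCm38. Tbr1 had 73, 72 and 58 counts in KO and 64, 41 and 35 counts in WT replicates 1, 2 and 3. Its levels were 2.45, 3.09 and 2.88 CPM in KO and 2.65, 2.41 and 1.70 CPM in WT. The groups overlapped, with the 2 highest values in KO and the lowest in WT replicate 3. The log2 fold change was 0.31 (SE 0.22, 95% interval -0.17 to 0.79), and Tbr1 did not pass (adjusted p = 0.487). The forebrain homeobox gene Emx1 was at 0.149 to 0.335 CPM in KO and 0.0486 to 0.176 CPM in WT.

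**Figure D1:**
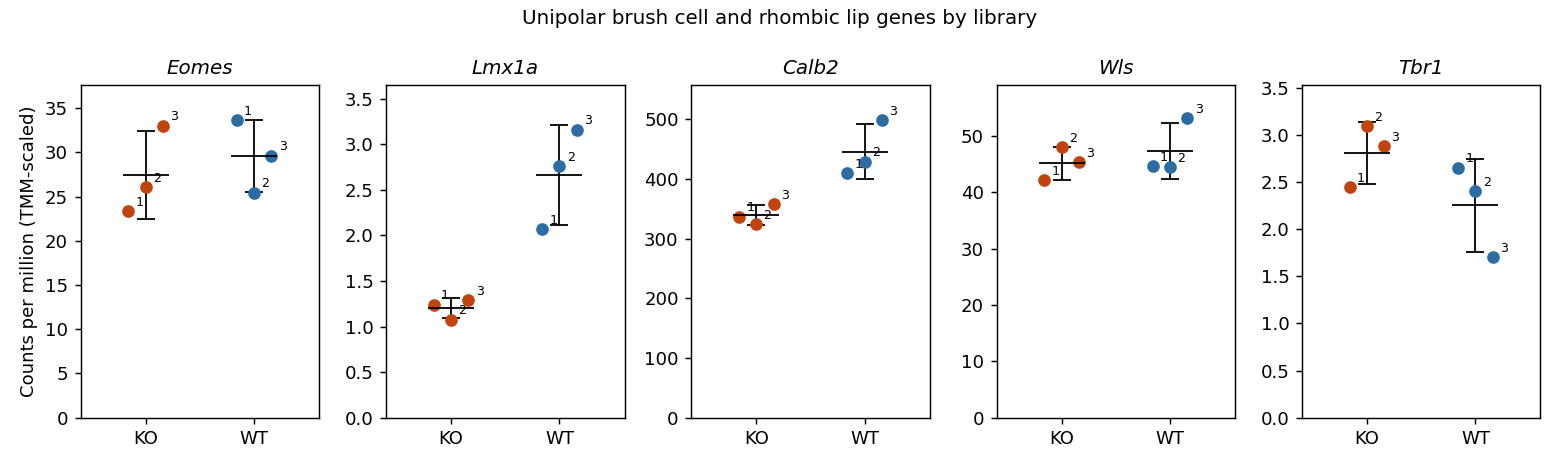
Level of each of the 5 genes in CPM, by library, for KO (red, left) and WT (blue, right). Points are single animals marked with their replicate number, and bars give the mean and SD of 3. The KO points of Lmx1a (1.07 to 1.29 CPM) and Calb2 (324 to 357 CPM) lie below all WT points, and the groups overlap for Eomes, Wls and Tbr1.

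Per kilobase of annotated exon, Calb2 was by far the most abundant of the 5 genes. Its level was 195 ± 9.68 RPKM (CPM per kilobase of exon) in KO and 256 ± 26.6 RPKM in WT. Eomes followed at 6.61 ± 1.20 RPKM in KO and 7.12 ± 0.983 RPKM in WT, and Wls at 5.13 ± 0.337 RPKM in KO and 5.39 ± 0.566 RPKM in WT. Within each genotype the 3 Eomes values lay above the 3 Wls values, by a narrow margin. The lowest places were taken by Tbr1 and Lmx1a, in a different order in each genotype. In KO, Tbr1 was above Lmx1a, with 0.446 to 0.564 RPKM for Tbr1 and 0.316 to 0.38 RPKM for Lmx1a. In WT, Lmx1a was above Tbr1, with 0.61 to 0.93 RPKM for Lmx1a and 0.31 to 0.483 RPKM for Tbr1.

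The difference between Lmx1a and Eomes, both markers of unipolar brush cells, was measured within each library. The ratio of their CPM was 0.0531, 0.0413 and 0.0391 in KO and 0.0616, 0.108 and 0.107 in WT replicates 1, 2 and 3. The KO ratios lay below the WT ratios, and WT replicate 1 was again nearest to them. The mean log2 ratio was -4.50 ± 0.24 in KO and -3.49 ± 0.46 in WT (SD, n = 3 each), a difference of -1.02 (exact permutation test, two-sided, p = 0.1, and 0.4 adjusted over 4 ratios). That of Calb2 to Eomes was 3.64 ± 0.21 in KO and 3.92 ± 0.27 in WT, with overlapping libraries (exact permutation p = 0.3). The ratios of Wls and Tbr1 to Eomes overlapped too, with differences of 0.045 and 0.45 (exact permutation p = 0.5 and 0.2). With 3 animals a group the test cannot reach 0.05, so a difference in response between these genes was not shown.

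Of the other unipolar brush cell markers none passed the test. Of 10 in the list 2 fell and 0 rose, and these 2 were Lmx1a and Calb2 themselves. Their log2 fold changes had a median of -0.056, against -0.0073 over all genes tested. The phospholipase gene Plcb4 was at 218 ± 6.60 and 226 ± 15.2 CPM (adjusted p = 0.699) and Sln, a regulator of the calcium pump, at 1.34 ± 0.20 and 1.63 ± 0.421 CPM (adjusted p = 0.616), each in KO and WT. Purkinje cells also express Plcb4.

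Of 13 genes of the rhombic lip and roof plate 11 were tested, 2 fell (Lmx1a and Msx1) and 0 rose, with a median log2 fold change of -0.22. The groups were apart with KO lower for 4 of the 11, against 12.2% of all genes tested. Msx1, a homeobox gene of the roof plate, was at 4.05, 5.20 and 5.76 CPM in KO and at 9.90, 13.5 and 12.2 CPM in WT (2.38-fold lower, log2 fold change -1.25, SE 0.17, adjusted p = 0.00463). Msx1 passed under every alternative run, leaving out each library included (highest adjusted p = 0.0338). The basic helix-loop-helix genes Atoh1, of granule cell precursors, and Olig3, of the rhombic lip, did not pass (adjusted p = 0.144 and 0.188). Atoh1 was at 1.43 ± 0.524 CPM in KO and 2.82 ± 0.731 CPM in WT, and Olig3 at 0.725 ± 0.331 CPM in KO and 1.51 ± 0.42 CPM in WT, both with the groups apart. Atoh1 passed without WT replicate 1 (adjusted p = 0.0469) and with no filter on low counts (adjusted p = 0.00872), and Olig3 with no filter (adjusted p = 0.0341). Over the whole table these runs called 5.24% (without WT replicate 1) and 2.45% (no filter) of genes lower, against 0.872% in the main run. Gdf7, a BMP-family ligand gene of the roof plate, had 2, 3 and 4 counts in KO and 8, 12 and 19 counts in WT and was too low to be tested. Lmx1b, the closest relative of Lmx1a, was at 0.38 ± 0.149 CPM in KO and 0.579 ± 0.203 CPM in WT (adjusted p = 0.492). The homeobox gene Barhl1 and the paired-box gene Pax6 of the granule lineage did not pass either (adjusted p = 0.363 and 0.307).

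**Figure D2:**
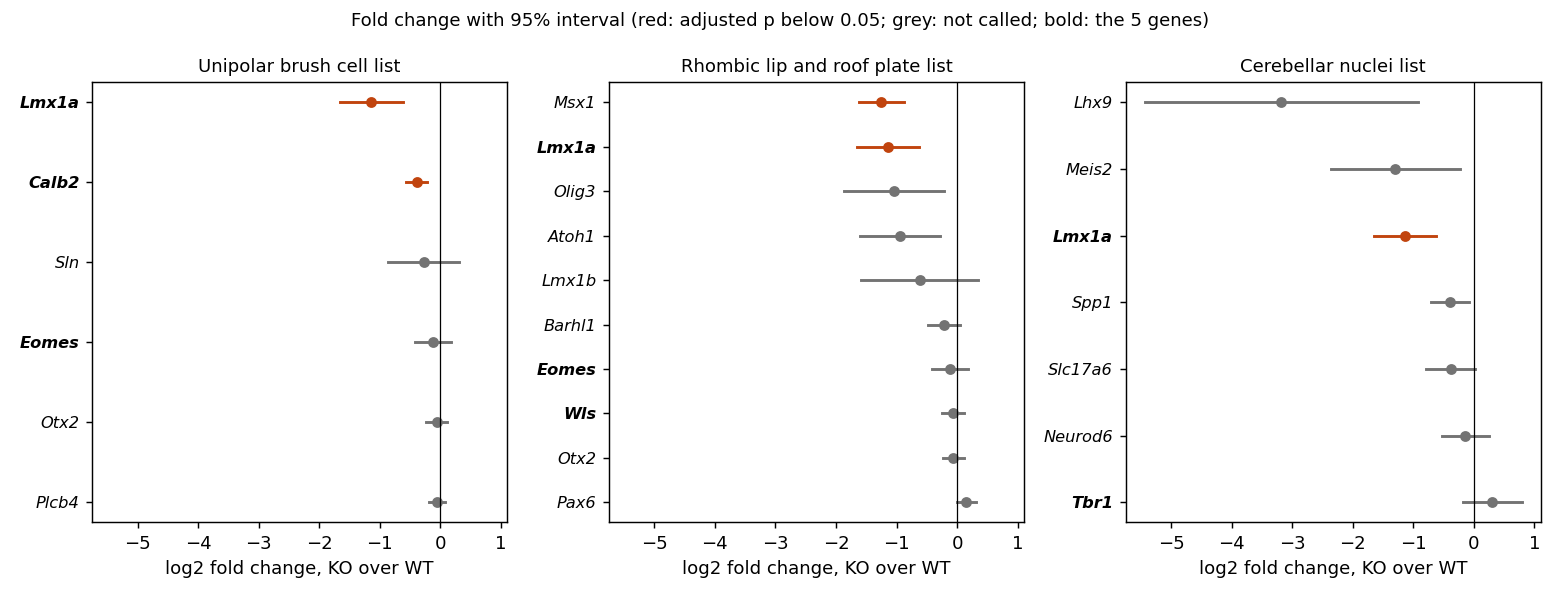
Log2 fold change of KO over WT with its 95% interval for the genes named in the text from the unipolar brush cell, rhombic lip and roof plate, and cerebellar nuclei lists, 1 row per gene. Red marks an adjusted p below 0.05, grey marks genes not called, and the 5 genes of interest are in bold. Lmx1a (-1.14), Calb2 (-0.39) and Msx1 (-1.25) are the genes called in these lists, and the interval of Lhx9 is the widest.

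Choroid plexus epithelium, the other product of the roof plate, differed between the groups far more. Over all genes tested, 0.872% were called lower and 0.784% higher. Of 16 genes of the choroid plexus list 15 were tested, 10 fell and 0 rose, with a median log2 fold change of -1.96. Their summed level was 61.3, 297 and 520 CPM in KO and 1225, 2036 and 2177 CPM in WT replicates 1, 2 and 3, most of it from the transthyretin gene Ttr in every library but KO replicate 1. Ttr was at 4.26, 220.1 and 431 CPM in KO and at 1096, 1861 and 1995 CPM in WT, and its adjusted p was 0.154 (0.0126 without KO replicate 1). The water channel gene Aqp1 was at 1.63 ± 0.876 CPM in KO and 11.1 ± 3.53 CPM in WT, and the tight junction gene Cldn2 at 2.94 ± 0.509 CPM in KO and 8.50 ± 2.33 CPM in WT (adjusted p = 0.00466 and 0.00862). The others called lower were Folr1, Kcne2, Kl, Sostdc1, F5, Slc4a5, Kcnj13 and Tmem72, while Clic6, Prlr and Slc13a4 did not pass (adjusted p = 0.0652, 0.0768 and 0.387). Otx2, a homeobox gene shared by this epithelium and cerebellar cells, was at 28.4 to 32.2 CPM in KO and 29.9 to 34.1 CPM in WT. Without KO replicate 2, or without WT replicate 2, Aqp1 alone of the 10 was called. F5 was also lost without KO replicate 1 or WT replicate 3 (adjusted p = 0.178 and 0.0568) and with a mean of at least 1 CPM (adjusted p = 0.0510), Kcnj13 without KO replicate 1 or 3 (adjusted p = 0.142 and 0.112) and Cldn2 without KO replicate 1 (adjusted p = 0.0545). Sostdc1 was lost in limma-voom (adjusted p = 0.0509) and Tmem72 in DESeq2 (adjusted p = 0.151). Clic6 and Prlr passed in DESeq2 (adjusted p = 0.000519 and 0.00411), with no filter on low counts and without WT replicate 1 (adjusted p = 0.00490 and 0.0220). All of the tested choroid plexus genes were above 0 in each library.

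Beside these sums, Lmx1a ran in the same order as the choroid plexus sum in WT, with WT replicate 1 lowest and WT replicate 3 highest in both. In KO it did not: KO replicate 1 had the lowest choroid plexus sum (61.3 CPM) and 1.24 CPM of Lmx1a. Of that sum, 28.4 CPM came from Otx2, 11.2 CPM from Slc13a4 and 4.26 CPM from Ttr. KO replicate 2, with a sum of 297 CPM, had 1.07 CPM of Lmx1a. These Lmx1a levels rest on 37 and 25 counts, whose Poisson intervals overlap (26.1 to 51.0 and 16.2 to 36.9 counts). The Lmx1a intervals of the WT replicates overlap as well (37.1 to 65.9, 34.5 to 62.5 and 50.2 to 82.8 counts). These intervals are of raw counts not scaled for depth, and their overlap is not a test. The order of Lmx1a within KO or within WT rests on few counts and was not tested. The part of the choroid plexus in the Lmx1a difference was not tested. Calb2 ran in the same order in WT as well, at 410, 429 and 498 CPM. Msx1 rose with the choroid plexus sum over KO replicates 1, 2 and 3 (4.05, 5.20 and 5.76 CPM). In WT, Msx1 was lowest in replicate 1, as the sum was, but highest in replicate 2 (9.90, 13.5 and 12.2 CPM). The part of the choroid plexus in the Msx1 difference was not tested either.

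Genes of the cerebellar nuclei gave 1 call among 12 tested, Lmx1a, with 0 higher and a median log2 fold change of -0.26. For several of them the WT mean came from 1 animal. The LIM homeobox gene Lhx9 was at 0.67, 0.602 and 0.397 CPM in KO and at 0.621, 1.11 and 13.9 CPM in WT replicates 1, 2 and 3 (adjusted p = 0.148). Meis2, a TALE homeobox gene, was at 3.45, 3.78 and 7.80 CPM in KO and at 5.88, 7.39 and 22.9 CPM in WT (adjusted p = 0.207). The vesicular glutamate transporter gene Slc17a6 was at 61.3 ± 4.49 CPM in KO and 80.2 ± 26.3 CPM in WT, with 109 CPM in WT replicate 3 (adjusted p = 0.307). Tbr1 had its lowest value in that library. The secreted phosphoprotein gene Spp1 was at 8.86 ± 0.514 CPM in KO and 11.5 ± 2.21 CPM in WT (adjusted p = 0.2), and Neurod6 did not pass (adjusted p = 0.703). Without WT replicate 1, Lhx9, Meis2 and Slc17a6 passed (adjusted p = 0.0167, 0.0359 and 0.0174), as they did with no filter on low counts. Over the whole table those runs called 5.24% and 2.45% of genes lower, against 0.872% in the main run. The passes were therefore not taken as support for a difference.

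The brainstem and midbrain list placed WT replicate 3 apart from the other 5 libraries. Its 12 genes summed to 9.01, 8.85 and 9.38 CPM in KO and to 9.03, 9.03 and 27.9 CPM in WT. Of 4 tested genes 0 were called, with 2 lower and 0 higher at an unadjusted p under 0.05 (8.99% and 8.57% of all genes tested) and a median log2 fold change of -0.80. The serotonin synthesis gene Tph2 was at 1.07 ± 0.0947 CPM in KO and 3.22 ± 2.94 CPM in WT (adjusted p = 0.167, and 0.0268 in DESeq2), and the noradrenaline transporter gene Slc6a2 did not pass (adjusted p = 0.206), nor did Th and Slc5a7 (adjusted p = 0.468 and 0.972). Calb2 is known from brainstem and midbrain neurons as well, and it was highest in WT replicate 3 (498 CPM). Without that library its log2 fold change was -0.30 (SE 0.062), and it was still called. Lmx1a was also highest there and was at -0.99 (SE 0.25) without it, where it was not called.

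**Figure D3:**
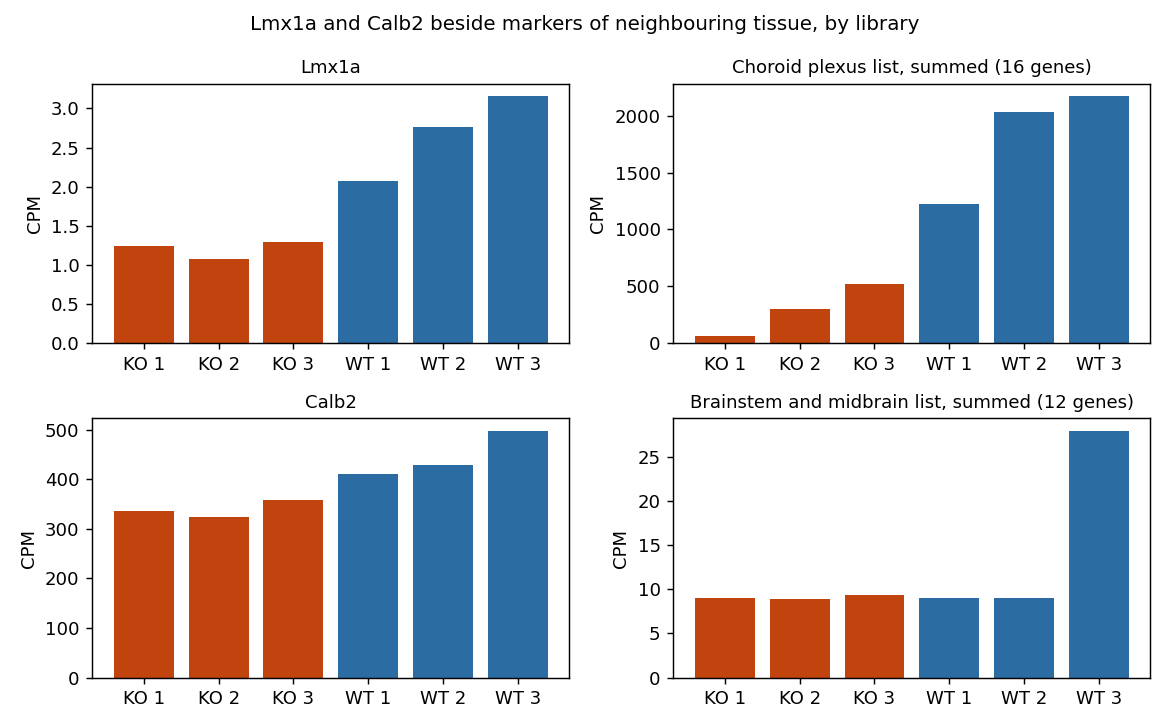
Lmx1a and Calb2 beside the summed levels of the choroid plexus and the brainstem and midbrain lists, in CPM, 1 bar per library, KO in red on the left and WT in blue on the right. The choroid plexus sum is 61.3 to 520 CPM in KO and 1225 to 2177 CPM in WT, and the brainstem and midbrain sum is 27.9 CPM in WT replicate 3 and 8.85 to 9.38 CPM in the other libraries.

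Mature granule cell genes, which share the granular layer with unipolar brush cells, gave 1 call among 16, Calb2. The median log2 fold change was -0.028 with 0 higher. The zinc finger gene Zic1 was at 1206 ± 24.3 CPM in KO and 1040 ± 29.3 CPM in WT with the groups apart (adjusted p = 0.106). The helix-loop-helix gene Neurod2 was at 275 ± 8.61 CPM in KO and 306 ± 41.5 CPM in WT, and the neuronal splicing factor gene Rbfox3 at 563 ± 4.41 CPM in KO and 622 ± 59.6 CPM in WT (adjusted p = 0.378 and 0.33). Zic2 did not pass (adjusted p = 0.551). Granule cell precursor genes gave 0 calls among 10 in edgeR, with a median of -0.10. Of the 10, 3 were lower and 1 higher at an unadjusted p under 0.05 (8.99% and 8.57% of all genes tested). Among them the Wnt antagonist gene Sfrp1 was at 36.6 ± 5.84 CPM in KO and 51.5 ± 7.59 CPM in WT (adjusted p = 0.0862, and 0.00429 in DESeq2), and the Hedgehog target Gli1 at 24.4 ± 1.01 CPM in KO and 19.6 ± 2.76 CPM in WT (adjusted p = 0.158). Ccnd1 did not pass (adjusted p = 0.252).

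Of the calcium-binding relatives of Calb2, the calbindin gene Calb1 and the parvalbumin gene Pvalb, both of Purkinje cells, had higher values in KO. Calb1 was at 1183 ± 15.2 CPM in KO and 999 ± 65.2 CPM in WT (adjusted p = 0.104), and Pvalb at 725 ± 19.6 CPM in KO and 621 ± 38.6 CPM in WT (adjusted p = 0.116). Neither passed in edgeR with the filter and all libraries, while both passed in DESeq2 (adjusted p = 0.00512 and 0.0164), with no filter on low counts (adjusted p = 0.0222 and 0.0388) and without WT replicate 1 (adjusted p = 0.0238 and 0.0148). In both the groups were apart with KO higher, opposite to Calb2 (11.5% of all genes tested were apart with KO higher). The list of 5 relatives had 3 tested genes, 0 calls in edgeR and a median of 0.22. Of the 3, 2 were higher at an unadjusted p under 0.05 (8.57% of all genes tested). Tbx21, the T-box relative of Eomes and Tbr1, and Scgn, a further relative of Calb2, were too low to be tested (at most 0.199 and 0.298 CPM).

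None of the Wnt ligand genes, whose products Wls carries, passed the test. Of 22 genes of Wnt ligands and their secretion 16 were tested and 0 were called in edgeR, with a median log2 fold change of 0.0047. At an unadjusted p under 0.05, 0 were lower and 1 was higher (8.99% and 8.57% of all genes tested). Porcn, which encodes the enzyme that attaches the lipid to Wnt proteins, was at 196 ± 1.87 CPM in KO and 187 ± 17.1 CPM in WT (adjusted p = 0.635). Wnt3 was at 17.1 ± 1.02 CPM in KO and 14.5 ± 0.58 CPM in WT (adjusted p = 0.223), Wnt2b at 3.27 ± 0.157 and 2.67 ± 0.268 CPM (adjusted p = 0.413) and Wnt16 at 1.97 ± 0.189 and 1.41 ± 0.462 CPM (adjusted p = 0.388), each with the groups apart and KO higher, as were 11.5% of all genes tested. The roof plate ligand genes Wnt1 and Wnt3a had at most 0.0497 CPM in any library. Among 12 Wnt response genes 0 were called in edgeR, with a median of -0.10. Of the 12, 3 were lower and 0 higher at an unadjusted p under 0.05 (8.99% and 8.57% of all genes tested). The feedback inhibitor gene Axin2 was at 31.1 ± 1.62 CPM in KO and 35.8 ± 2.33 CPM in WT (adjusted p = 0.19). Rnf43 and Ctnnb1 did not pass (adjusted p = 0.269 and 0.421), and Tcf7l2 rested on WT replicate 3, at 6.46 to 7.37 CPM in KO and 6.34, 7.16 and 36.9 CPM in WT.

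The lists of more distant tissue gave 0 calls in edgeR. Of 9 forebrain excitatory neuron genes 5 were tested, and the median was -0.16. Of the 5, 1 was lower at an unadjusted p under 0.05 (Nrn1, adjusted p = 0.284), against 8.99% of all genes tested. Bcl11b did not pass (adjusted p = 0.612). Of 6 genes of the brainstem rhombic lip and cochlear nucleus 3 were tested, and the median was -0.30. Atoh7 was at 7.01 ± 1.41 CPM in KO and 10.4 ± 1.18 CPM in WT with the groups apart (adjusted p = 0.106, and 0.0401 in DESeq2), while Barhl2 did not pass (adjusted p = 0.92). Genes of the caudal hindbrain in these lists and in the brainstem and midbrain list were too low to be tested, and most had more counts in WT. Hoxa5, a homeobox gene of the caudal hindbrain and spinal cord, had 1, 0 and 2 counts in KO and 13, 13 and 7 counts in WT replicates 1, 2 and 3. Hoxa2, which patterns the hindbrain, had 0, 0 and 2 counts in KO and 6, 4 and 11 counts in WT. Hoxb2, Hoxb3 and Hoxb5 had 0 or 1 count in each KO library and 0 to 6 counts in WT libraries. Hoxa5 and Hoxa2 were thus higher in each WT library than in any KO library, as Lmx1a and Calb2 were, and the part of caudal hindbrain tissue in those differences was not tested.

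The genes nearest to each of the 5 were sought among 13430 protein-coding genes by the root mean square difference of centred log2 CPM over the 6 libraries. Nearest to Lmx1a were Lbp and Crb2 (differences of 0.13 and 0.14, against a median of 0.57 for all candidates). Lbp encodes the lipopolysaccharide-binding protein and Crb2 an apical polarity protein. Lbp was at 3.92, 4.17 and 3.97 CPM in KO and at 6.54, 10.3 and 10.6 CPM in WT. Lbp was called lower (adjusted p = 0.014), and Crb2 was not (adjusted p = 0.0656). The profile of Lbp has the same shape as that of Lmx1a, level in KO and lowest of the WT animals in replicate 1. Lbp was picked by this nearness, so the shared shape and the lower level in KO follow from the choice. Nearest to Calb2 were Tpd52l1, Zfp804a and Fbln7 (0.036, 0.040 and 0.045, against a median of 0.23). None of these 3 was called in edgeR (adjusted p = 0.188, 0.0508 and 0.183). Eomes was nearest to Atg16l2, Tns2 and Aqp6 (0.062, 0.067 and 0.077), Wls to Cltc and Rnf227 (0.028 and 0.029) and Tbr1 to Chrnb1, Colca2 and Ranbp3l (0.064, 0.069 and 0.078). No gene of the 5 was among the 3 nearest of another. Between Lmx1a and Calb2 the difference was 0.36, and 195 candidates were nearer to Lmx1a than Calb2 was. Between Lmx1a and Eomes it was 0.56, and 6576 candidates were nearer.

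**Figure D4:**
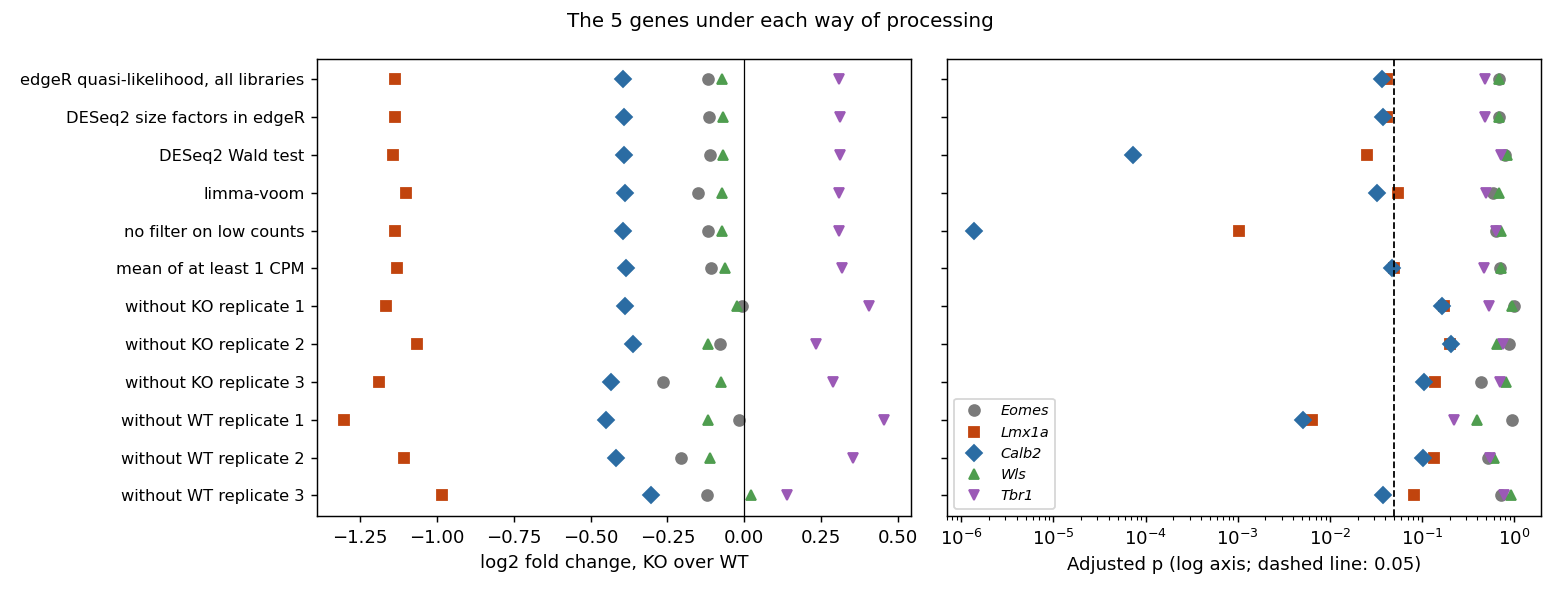
Log2 fold change of KO over WT (left) and adjusted p on a log axis (right) of the 5 genes, 1 row per way of processing, with the dashed line at 0.05. Lmx1a stays between -1.30 and -0.99 and Calb2 between -0.45 and -0.30, and both cross the dashed line without KO replicate 1, 2 or 3 or WT replicate 2. Eomes, Wls and Tbr1 stay right of the line in every row.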

How the data were processed

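Each library has 1 deposited table of raw read counts by gene, made with STAR 2.7.5a on mm10/GRCm38, per the submitters' processing notes, which also name edgeR 3.12. Ensembl release 102 is named per the file headers and names. Libraries came from Illumina TruSeq kits and paired reads of 150 bases, per the labels' protocols. No counting options were stated. The strand columns held equal shares (49.9% to 50.0% in the first), so the column counted without strand was used, and genes overlapping on opposite strands share reads. The 4 summary lines were left out. They held 6.52% to 17.2% (unmapped), 3.72% to 4.29% (multimapping), 6.94% to 9.30% (no gene) and 3.95% to 4.44% (ambiguous) of reads.

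Symbols, exon lengths and positions came from GENCODE release 21 (GRCm38), which matched 55227 of 55487 identifiers. Genes were compared with edgeR 4.0.16 (R 4.3.3; TMM, minimum count 10, minimum total 15, two-sided quasi-likelihood F test, p adjusted by Benjamini-Hochberg over 18237 genes, threshold 0.05). SEs are the log2 fold change divided by the square root of F. DESeq2 1.42.0, limma 3.58.1 (voom), other filters, other scaling and leaving out each library were the alternatives. Log2 CPM used a prior count of 2. Lists were described by counts and medians. The steps were tested on simulated data. Replicates differed by more than counting noise (chi-square per degree of freedom 2.54 to 16.8). Poisson intervals cover counting error only.

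The 5 genes and the 13 lists were chosen with earlier results of these data known. Named genes were the 5, all called list genes, up to 4 more per list with the smallest p, and the 3 genes nearest to each of the 5. Other genes are named as members of the lists, after their values were seen. Some genes that the rule picks are not reported here, and counts and sums of lists include them.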

Additional observations from a re-analysis of the deposited data

How the results depend on the processing

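No paired analysis was possible because the replicate numbers only follow the order of the samples and the labels tie no KO animal to a WT animal. The count of genes called over the whole table depended on tool and library: 143 higher and 159 lower in edgeR, 290 and 272 in DESeq2, 803 and 820 with no filter on low counts, and 28 to 959 higher and 53 to 962 lower when 1 library was left out (the most without WT replicate 1). The cause was not tested. Passes with no filter on low counts or without WT replicate 1 come from runs with many more calls and were not taken as support. Of the list genes, 1 was called higher and 13 lower, against 4 higher in DESeq2, 4 higher and 34 lower with no filter, and 0 to 7 higher and 2 to 25 lower without 1 library. Of the 5 genes, 2 were called lower, 1 in limma-voom and 0 to 2 without 1 library.

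Eomes, Wls and Tbr1 stayed uncalled under all alternatives. In limma-voom Lmx1a had a log2 fold change of -1.10 and was not called. Without 1 library the log2 fold change was -1.30 to -0.99 for Lmx1a, -0.45 to -0.30 for Calb2, -0.27 to -0.0081 for Eomes, -0.12 to 0.021 for Wls and 0.14 to 0.45 for Tbr1. The log2 ratio to Eomes, KO minus WT, was then -1.29 to -0.88 for Lmx1a, -0.43 to -0.18 for Calb2, -0.094 to 0.18 for Wls and 0.25 to 0.61 for Tbr1. Of uncalled list genes, Barhl2 (-0.051 to 0.089), Bcl11b (-0.76 to 0.35), Neurod6 (-0.30 to 0.061), Slc5a7 (-0.21 to 0.22, and 0.0095 in limma-voom) and Tcf7l2 (-1.70 to 0.036) changed sign. Depth limits Lmx1a (25 to 65 counts) and Tbr1 (35 to 73 counts) most.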
